A study of Homo sapiens with 7 samples.

Results

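The genes described here are targets of the tumour suppressor p53 and regulators of apoptosis, 42 in all of the 34809 gene names on the array. They were taken by name, from every non-control probe that the array annotation gives to one of them, which made 63 probes on the 7 arrays. Of these genes 24 had 1 probe, 15 had 2 and 3 had 3. ACHN is an established human renal cell carcinoma (RCC) line. In both groups it had been infected with a pBabe-hygro retrovirus and selected with hygromycin. The 4 EV samples carried the empty vector (EV), and the 3 HOTAIR samples carried the cDNA of HOTAIR, a long non-coding RNA transcribed from the HOXC cluster, so that the comparison asks what expression of HOTAIR changed. No source used here says whether the samples of a group came from separate infections or cultures, so the p-values measure only the spread between these samples, which may be technical. RNA was labelled with Cy3 and read on 1-colour arrays of a single slide. Each group filled a row of its own on that slide, so an effect of the row cannot be told apart from one of the group.

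In cells with DNA damage or other stress, p53 binds to its response elements and raises the transcription of its targets. One of them, MDM2, marks p53 for degradation and so closes a feedback loop. Other targets stop the cell cycle, repair DNA, limit oxidative stress or start cell death. Cell death by apoptosis follows an extrinsic route, from death receptors to caspase 8, or an intrinsic route, in which BH3-only proteins and the BCL2 family decide whether BAX and BAK open the mitochondrial outer membrane. p53 is controlled largely through the stability of its protein, which an array of mRNA does not measure.

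Short stretches of sequence show what these probes and promoters hold. RefSeq promoters of GRCh38.p14, from 250 bases before to 50 after a transcript start, were found for 35 of the 42 genes, with 64 starts, and not for GADD45A, TP53INP1, RRM2B, TNFRSF10A, TNFRSF10B, BIK and MCL1. The p53 half-site was searched in them by its consensus of 10 bases, which reads the same on both strands, and 8 genes held it at 1 of their starts (SESN1, FDXR, AEN, DDB2, FAS, CASP8, CASP9 and BAK1). That made 12.5% of the 64 starts, beside 6.63% of all 35116 starts in the table. SESN1, FAS and DDB2 are shown, the first 2 because their groups did not overlap on the arrays and DDB2 because its pair of half-sites, 1 base apart, was at 1 of the 10 starts in the whole table with such a pair (spacer of at most 13 bases). Capitals mark the half-site:
SESN1, minus strand, chr6:109009018-109009047: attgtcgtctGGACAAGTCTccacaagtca
FAS, plus strand, chr10:88991299-88991328: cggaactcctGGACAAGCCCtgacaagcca
DDB2, plus strand, chr11:47214975-47215004: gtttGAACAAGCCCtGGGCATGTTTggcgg
Counted from the start as 0, the half-site began at -49 for SESN1, at -122 for FAS and at 5 for DDB2. A match describes the letters only, and no binding was measured. The probe whose values separated the groups for FAS shares 32 of its 60 bases with another FAS probe, on the plus strand of hg19, and the 30 bases across each end of the shared stretch (capitals) were:
FAS probe A_33_P3381127, chr10:90774530-90774559: tgtatgttagtacaaATGTCTATCCACAGG
FAS probe A_23_P63896, chr10:90774562-90774591: AACCCCACTCTATGAatcaatagaagaagc

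Values are log2 intensities relative to each array's 75th percentile, so 0 is that percentile. A level of 1 gene is not compared with that of another, because probes differ in brightness. HOTAIR itself ranged from -7.07 to -6.29 in EV, where no array had it well above background, and from -3.24 to -2.58 in HOTAIR, where every array had. Its adjusted p in limma was 0.00162. Of 8 markers of kidney epithelium and renal carcinoma, 7 were well above background on all 7 arrays, and CA9 was on none. All 6 fibroblast markers were on no array, as were the leukocyte marker CD3E and the endothelial markers VWF and KDR. The leukocyte marker CD14 was well above background on all arrays, and the probes of PTPRC, another leukocyte marker, were on at most 2 EV arrays and 1 HOTAIR array. The endothelial marker CDH5 was well above background on 3 EV arrays and 1 HOTAIR array, and PECAM1 on 1 EV array with 1 of its probes. No marker tested passed the adjusted p in limma. The kidney marker EPCAM had all HOTAIR arrays below all EV arrays, as had 3.62% of all genes tested. Its difference, HOTAIR minus EV, was -0.23 (SE 0.10, adjusted p = 0.881 in limma). The summed level of the kidney markers lay between 8.13 and 8.50 on the EV arrays and between 8.25 and 8.34 on the HOTAIR arrays. In RNA of whole cultures, fewer cells that express a gene and less of its RNA per cell cannot be told apart.

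EV 2 stood apart from the other arrays over these genes, and HOTAIR 3 shared part of its pattern. The root mean square of the 41 tested genes' deviations from their group mean was 0.363 on EV 2, between 0.178 and 0.188 on the other EV arrays, and between 0.118 and 0.194 on the HOTAIR arrays. EV 2 stood apart over the whole array too, where the same measure over all genes was 0.453 on EV 2, between 0.238 and 0.302 on the other EV arrays and between 0.182 and 0.274 on the HOTAIR arrays. On EV 2, CDKN1A, SESN2, AEN, BCL2L1 and DIABLO lay more than 0.5 below their group mean and TNFRSF10A and BIK more than 0.5 above it. On HOTAIR 3, CDKN1A alone was that far from its mean (-0.60). The same held for TNFRSF10A alone on EV 1 (-0.64) and for DIABLO alone on EV 4 (0.83). Over the 41 genes the deviations on EV 2 and HOTAIR 3 had a correlation of 0.611, beside 0.619 over all tested probes, given as a description across genes that share the same arrays. This pair was picked from these data, and of the other pairs only the same-numbered arrays are given, further below. The part of EV 2 and HOTAIR 3 in the results below was not tested beyond the values given without these 2 arrays.

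Of the 42 genes, 41 had a probe that all arrays of a group, or of both, called well above background, and these were tested. The exception was BMF, a BH3-only gene, whose 2 probes were below this limit on all arrays. None of the 41 passed an adjusted p of 0.05 in limma, where 0.167% of all 20419 tested probes passed it, and none was called by the rank product. The lowest adjusted p was 0.469, for FAS. An unadjusted limma p under 0.05 was reached by FAS and SESN1, 2 of 41, beside 6.11% of all 16664 genes tested. The 95% interval of the difference lay within 2-fold in either direction for 40 of the 41, beside 88% of all genes, and DIABLO was the exception.

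The log2 difference, HOTAIR minus EV, was below 0 for 26 of the 41 genes, beside 47.6% of all genes, and its median was -0.034, beside 0.011 over all genes. Genes in the p53 target roles and genes in the apoptosis roles are given side by side, with no test between them. Some of the apoptosis genes, BBC3 (-0.00066) and PMAIP1 (0.094) among them, are p53 targets as well. The counts below therefore depend on the role given to each gene and do not cover all p53 targets. Among genes given the p53 target roles (feedback, growth arrest, stress and metabolism, DNA repair and nucleotide supply), 15 of 19 were below 0. Their median was -0.17. Of the apoptosis genes 11 were below 0 and 11 above, with a median of 0.02. Single genes kept their 3 HOTAIR arrays all below the 4 EV arrays in 5 cases, SESN1, TP53INP1, XPC, FAS and BCL2, beside 3.62% of all genes. BAX was the only 1 of the 41 with all HOTAIR arrays above all EV arrays, beside 4.43%. When EV 2 and HOTAIR 3 were left out, which leaves 3 arrays against 2, 12 of the 41 did not overlap with HOTAIR lower, beside 14.1% of all genes, and 5 with HOTAIR higher, beside 14.5%.

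**Figure D1:**
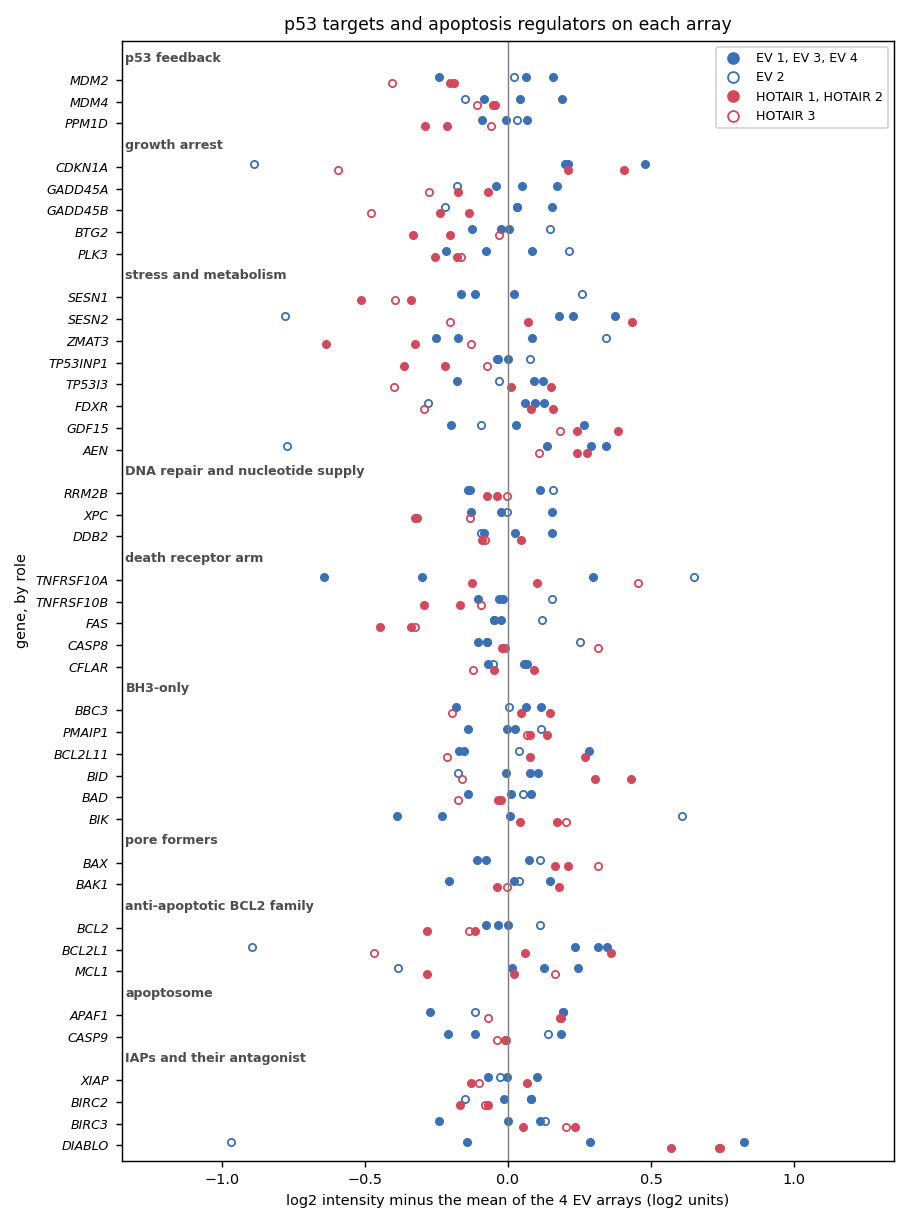
Log2 intensity of the 41 tested genes on each array, minus the mean of the 4 EV arrays (x axis, log2 units), by role (y axis). Each point is 1 array, blue for EV and red for HOTAIR, with EV 2 and HOTAIR 3 as open circles. The points of SESN1, TP53INP1, XPC, FAS and BCL2 do not overlap, with HOTAIR lower, while CDKN1A, SESN2, AEN, BCL2L1 and DIABLO have EV 2 far to the left.

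MDM2, MDM4 and PPM1D form the feedback on p53, MDM2 and MDM4 as its direct inhibitors and PPM1D as a phosphatase that ends the damage response. All 3 had a difference below 0, from -0.26 to -0.069. MDM2 had levels of 1.23, 1.09, 0.83 and 1.13 in EV and 0.88, 0.87 and 0.66 in HOTAIR, each in the order of the array numbers, as below. EV 3 lay below HOTAIR 1 and HOTAIR 2, so the groups overlapped. The difference was -0.26 (SE 0.13, adjusted p = 0.921 in limma). It was -0.10 with array weights, which count an array by how closely its probes follow the fit, and the other probes of MDM2 gave -0.23 and -0.092. MDM4 had a second probe at 0.051 and PPM1D a second probe at 0.01, both above 0.

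The growth arrest genes CDKN1A, GADD45A, GADD45B, BTG2 and PLK3 had differences from -0.28 to 0.01, and 4 of 5 were below 0. CDKN1A encodes p21, an inhibitor of cyclin-dependent kinases. Its levels were -0.0014, -1.10, 0.27 and -0.014 in EV and 0.19, -0.0027 and -0.81 in HOTAIR. A single array of each group, EV 2 and HOTAIR 3, was far below the others, and the other 5 overlapped. The difference was 0.01 with a 95% interval from -0.85 to 0.87, the second widest after that of DIABLO. It was -0.29 without EV 2, 0.31 without HOTAIR 3 and 0.01 without both. GADD45B, a stress-induced gene like GADD45A, had the lowest difference of the 5, -0.28 (SE 0.14, adjusted p = 0.908 in limma). BTG2, an antiproliferative gene, and PLK3, a kinase of the stress response, had differences of -0.19 and -0.20.

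SESN1, SESN2, ZMAT3, TP53INP1, TP53I3, FDXR, GDF15 and AEN are p53 targets that act in stress and metabolism. Of these 8 genes 5 were below 0, and the range from -0.42 to 0.27 held both the lowest difference of all 41 and 1 of the 3 highest. Sestrin 1, the product of SESN1, restrains mTORC1 and oxidative stress. Its probe lies on the minus strand of hg19 chromosome 6 from 109308477 to 109308536, and the levels were -0.51, -0.084, -0.32 and -0.46 in EV and -0.68, -0.86 and -0.74 in HOTAIR. Every HOTAIR array was below every EV array, and EV 2 was the highest of all. The difference was -0.42 (SE 0.13), 1.33-fold lower on the HOTAIR arrays with a 95% interval from -0.72 to -0.11 on the log2 scale. Limma's adjusted p was 0.627, and the exact permutation test, two-sided over the 35 assignments of the labels, gave p = 0.0286, the smallest that it can give. For any gene whose groups do not overlap this test can give only 0.0286 or 0.0571. Here and below, its p for such a gene therefore restates the lack of overlap. Without EV 2 and HOTAIR 3 the difference was -0.34.

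ZMAT3, an RNA-binding zinc finger protein, had levels of -2.41, -1.82, -2.34 and -2.08 in EV and -2.49, -2.80 and -2.29 in HOTAIR. HOTAIR 3 lay above EV 1 and EV 3, so the groups overlapped. The difference was -0.36 (SE 0.19, adjusted p = 0.926 in limma), and -0.23 without HOTAIR 2 and -0.24 with normexp background correction. TP53INP1, a nuclear protein that promotes p53 phosphorylation, had levels of -0.95, -0.83, -0.94 and -0.91 in EV and -1.13, -1.27 and -0.98 in HOTAIR. Its HOTAIR arrays were all lower, HOTAIR 3 by a small margin, and the EV arrays lay within a narrow range. The difference was -0.22 (SE 0.11, adjusted p = 0.926 in limma, exact permutation p = 0.0286). Its other probe gave the same difference with a far larger SE, 0.39, and overlapping groups.

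GDF15, a secreted stress cytokine of the TGF-beta family, was opposite in sign. It had levels of 6.31, 6.19, 6.54 and 6.08 in EV and 6.52, 6.66 and 6.46 in HOTAIR. EV 3 lay between the HOTAIR arrays and the other EV arrays lay below them. The difference was 0.27 (SE 0.14, adjusted p = 0.926 in limma), and 0.18 with array weights. SESN2 and AEN, an exonuclease that acts in apoptosis, had differences of 0.10 (SE 0.30) and 0.21 (SE 0.27), and EV 2 was their lowest array with levels of -1.73 and -0.74. A second AEN probe gave -0.028 (SE 0.48). TP53I3, an oxidoreductase, and FDXR, the mitochondrial ferredoxin reductase, had differences of -0.079 and -0.019. A second TP53I3 probe gave 0.0027.

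XPC, DDB2 and RRM2B serve DNA repair, the first 2 by recognising damage in nucleotide excision repair and RRM2B by supplying nucleotides as a subunit of ribonucleotide reductase. Their differences were -0.26, -0.042 and -0.038, all below 0, although the second probes of DDB2 and RRM2B gave 0.18 and 0.013. XPC had levels of -0.71, -0.59, -0.61 and -0.43 in EV and -0.90, -0.91 and -0.72 in HOTAIR. The highest HOTAIR array, HOTAIR 3, and the lowest EV array, EV 1, were almost equal. The difference of the means was -0.26 (SE 0.11), with an adjusted p of 0.872 in limma and an exact permutation p of 0.0571. For DDB2, whose promoter stretch is printed above, the 95% interval ran from -0.30 to 0.21.

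**Figure D2:**
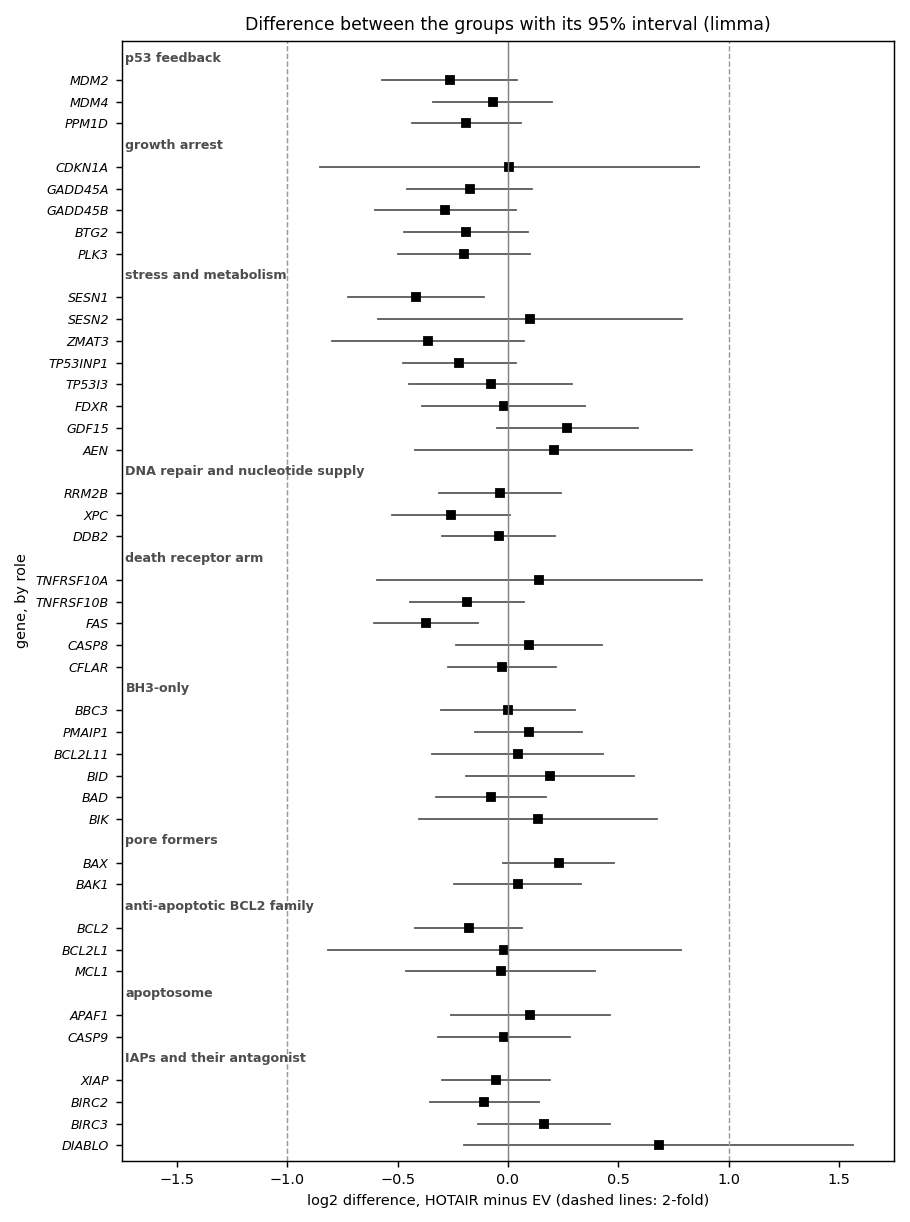
Log2 difference between the 3 HOTAIR and the 4 EV arrays (x axis, HOTAIR minus EV) for the 41 tested genes by role (y axis). Squares are the fitted differences, lines their 95% intervals from limma, and dashed lines mark 2-fold. The intervals of SESN1 and FAS lie below 0, and that of DIABLO alone passes 2-fold.

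In the death receptor arm, FAS had the lowest p of all 41 genes, and the 5 genes ranged from -0.37 to 0.14 with 3 below 0. FAS, the receptor of FAS ligand, had levels of 2.59, 2.76, 2.62 and 2.59 in EV and 2.19, 2.30 and 2.31 in HOTAIR. All HOTAIR arrays were below all EV arrays, and the gap between the groups was wider than the spread within either. The difference was -0.37 (SE 0.10), 1.29-fold lower on the HOTAIR arrays with a 95% interval from -0.61 to -0.13 on the log2 scale. The unadjusted p of limma was 0.00713, the adjusted p 0.469, and the exact permutation p 0.0286. Without EV 2 and HOTAIR 3 the difference was -0.35.

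The other FAS probes had differences of the same sign and similar size, but their groups overlapped. The probe that shares 32 bases with the first had levels of 2.05, 2.29, 2.16 and 1.58 in EV and 1.59, 1.81 and 1.86 in HOTAIR. Here EV 4 was the lowest of all 7 arrays, although with the first probe it was almost equal to EV 1. The difference was -0.27 (SE 0.18). The third probe, 397 bases closer to the 5′ end of the transcript than the first, gave -0.29 (SE 0.28), with HOTAIR 3 lowest at -1.22.

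TNFRSF10A and TNFRSF10B encode the receptors of the ligand TRAIL, and their differences were 0.14 (SE 0.32) and -0.19 (SE 0.11). TNFRSF10A had the widest spread of the arm, from -1.12 on EV 1 to 0.18 on EV 2. CASP8, the initiator caspase of this route, and CFLAR, which encodes its inhibitor FLIP, had differences of 0.094 and -0.027. Their second probes gave 0.61 (SE 0.39) and 0.16 (SE 0.22), and that of CASP8 was well above background on 3 EV arrays. TNFSF10, the gene of TRAIL and not one of the 42, had levels of -3.99, -4.26, -4.004 and -4.15 in EV and -3.87, -3.51 and -3.72 in HOTAIR. Its HOTAIR arrays were all higher, with a difference of 0.40 (SE 0.13, adjusted p = 0.632 in limma), and its second probe gave 0.47 without overlap. With normexp the difference was 0.13.

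The BH3-only genes sense damage and antagonise the anti-apoptotic BCL2 proteins or activate BAX and BAK. Of the 7, BMF was not tested, 4 of the other 6 were above 0, and their differences ranged from -0.078 for BAD to 0.19 for BID. The p53 targets BBC3, which encodes PUMA, and PMAIP1, which encodes NOXA, had 95% intervals from -0.30 to 0.30 and from -0.15 to 0.34. BIK had its highest level on EV 2, -3.96, beside levels from -4.95 to -4.56 on the other EV arrays and from -4.53 to -4.36 on the HOTAIR arrays. BCL2L11, the gene of BIM, had 3 probes with differences from 0.04 to 0.24.

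BAX and BAK1 encode the proteins that form the mitochondrial pore, and both were above 0. BAX had levels of 4.09, 4.28, 4.06 and 4.24 in EV and 4.33, 4.38 and 4.48 in HOTAIR. All HOTAIR arrays were higher, although the lowest of them was only slightly above EV 2. The difference was 0.23 (SE 0.11), 1.17-fold higher, with an adjusted p of 0.906 in limma and an exact permutation p of 0.0571. A second BAX probe, annotated to another transcript, had levels of -1.23, 0.84, -0.93 and -0.48 in EV and -0.70, -0.77 and 0.14 in HOTAIR. There EV 2 was highest and HOTAIR 3 next, the groups overlapped, and the difference was 0.0031 (SE 0.49). Over the mean of both probes the difference of BAX was 0.12. BAK1 had a difference of 0.045 (SE 0.12).

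The anti-apoptotic BCL2, BCL2L1 and MCL1 had differences of -0.18, -0.017 and -0.034. BCL2 had levels of -0.0089, 0.10, -0.087 and -0.046 in EV and -0.29, -0.13 and -0.14 in HOTAIR. Its HOTAIR arrays were all lower, HOTAIR 2 by a small margin, with an SE of 0.10, an adjusted p of 0.939 in limma and an exact permutation p of 0.0571. The second BCL2 probe, on another transcript, gave 0.034 with overlapping groups, and the mean of both -0.072. With array weights the difference was -0.11.

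BCL2L1, the gene of BCL-XL, had levels of 0.69, -0.55, 0.58 and 0.66 in EV and 0.70, 0.40 and -0.12 in HOTAIR. As with CDKN1A, EV 2 and HOTAIR 3 were the lowest of their groups. Its 95% interval ran from -0.82 to 0.78, and the difference was -0.32 without EV 2, 0.21 without HOTAIR 3 and -0.090 without both. MCL1, a short-lived inhibitor of BAX and BAK, had levels of 1.73, 1.09, 1.50 and 1.61 in EV and 1.50, 1.20 and 1.64 in HOTAIR. EV 2 and HOTAIR 2 were low, and the difference had an SE of 0.18. It was -0.26 without EV 2 and HOTAIR 3 and turned to 0.091 without HOTAIR 2, to 0.048 without EV 1 and to 0.0081 without EV 4.

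Downstream of the pore, APAF1 and CASP9, which together form the apoptosome, had differences of 0.10 and -0.019. XIAP, BIRC2 and BIRC3 encode inhibitor of apoptosis proteins (IAPs), with differences of -0.054, -0.11 and 0.16, none with an interval that left out 0. A second XIAP probe is placed by the annotation on chromosome 10 and not on X, and gave -0.082. DIABLO, the gene of the mitochondrial antagonist of the IAPs, had the highest difference of all 41, 0.68 (SE 0.38, adjusted p = 0.932 in limma). Its levels were 4.62, 3.79, 5.05 and 5.59 in EV and 5.50, 5.33 and 5.50 in HOTAIR. The EV arrays spread over a far wider range than the HOTAIR arrays, which lay between EV 3 and EV 4. The difference was 0.36 without EV 2, 0.96 without EV 4 and 0.42 with array weights, and the second DIABLO probe, on another transcript, gave -0.05 (SE 0.12), so that the mean of both was 0.32.

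**Figure D3:**
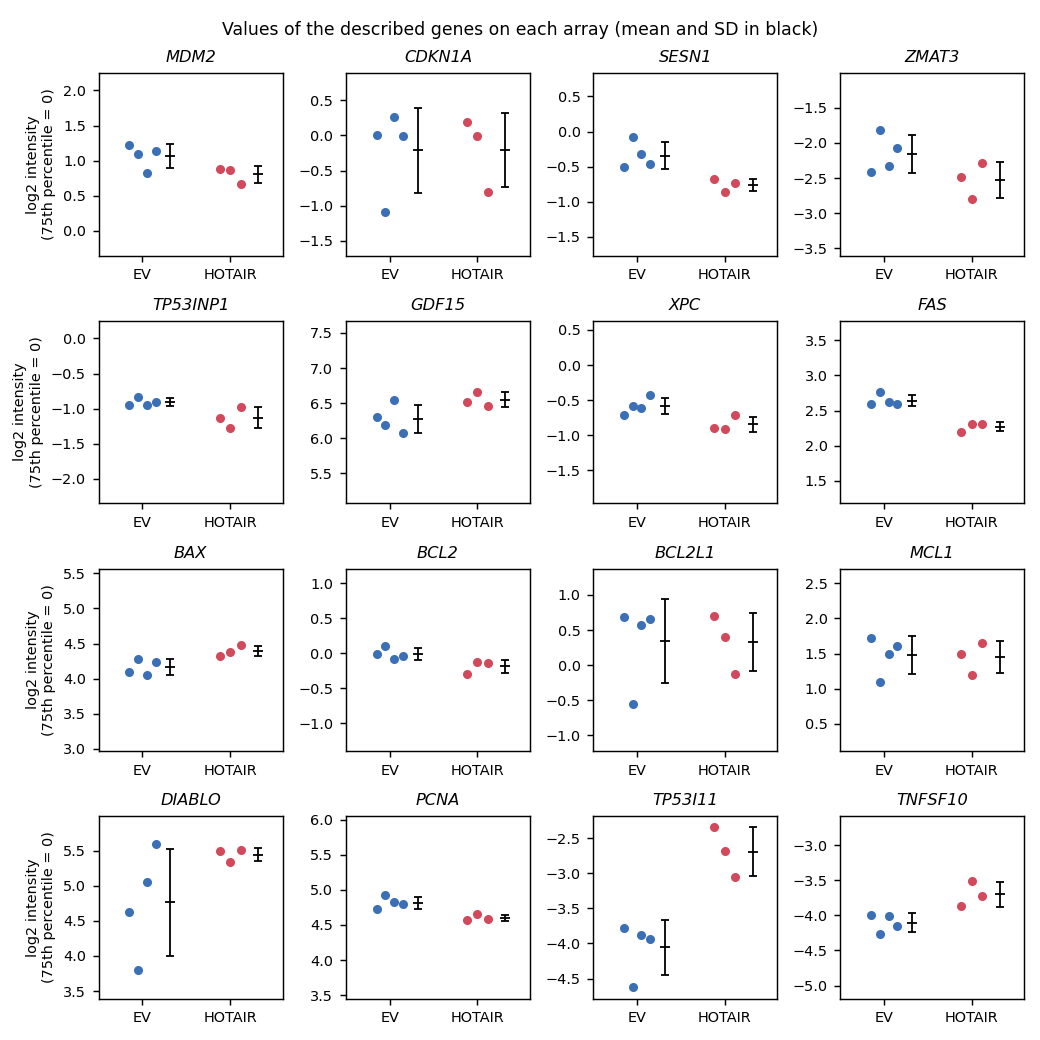
Log2 intensity relative to the 75th percentile (y axis, the same span in every panel) of 13 of the 42 genes and of PCNA, TP53I11 and TNFSF10 on the 4 EV arrays (blue) and the 3 HOTAIR arrays (red), 1 point per array in number order, with mean and SD in black. CDKN1A and BCL2L1 each have 1 low array in both groups, the EV arrays of DIABLO are spread widely, and TP53I11 has the widest gap between the groups.

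Further genes of the same pathways, 66 in all, were counted as context. Of these 60 were tested, 0 of them passed the adjusted p, 28 were above 0 and 32 below, and 58 had an interval within 2-fold. Below 0 were 18 of 29 further p53 targets (median -0.034) and 6 of 7 genes of the p53 family and its kinases (median -0.078). Of 24 further apoptosis genes 8 were below 0 (median 0.042). At an unadjusted limma p under 0.05 there were 2 of the 60, TP53I11 and TNFSF10, beside 6.11% of all genes. These were also the 2 whose HOTAIR arrays were all higher, beside 4.43%. PCNA, the sliding clamp of DNA replication, and RCHY1, a ubiquitin ligase that acts on p53, had all HOTAIR arrays lower, 2 of 60 beside 3.62% of all genes. The levels of PCNA were 4.73, 4.93, 4.82 and 4.79 in EV and 4.57, 4.65 and 4.59 in HOTAIR, a difference of -0.22 (SE 0.10). Those of RCHY1 were -2.49, -2.26, -2.58 and -2.51 in EV and -2.71, -2.68 and -2.63 in HOTAIR, a difference of -0.21 (SE 0.11), and -0.13 with normexp. Both pairs of groups were close together, and the adjusted p-values in limma were 0.896 and 0.926. A second PCNA probe gave -0.090 (SE 0.20) with overlapping groups. TP53I11, known as a gene that p53 can induce, had levels of -3.78, -4.63, -3.88 and -3.94 in EV and -2.35, -2.68 and -3.05 in HOTAIR. The gap between its groups was wider than that of any of the 42 genes. The difference was 1.36 (SE 0.25), 2.57-fold higher and 0.67 on the log2 scale with normexp. The adjusted p was 0.144 in limma, and the exact permutation p of 0.0286 restates the lack of overlap. The second TP53I11 probe gave 1.45 (SE 0.31), but was well above background on only 2 of the 4 EV arrays. With array weights, which counted EV 2 at 0.199 and EV 3 at 3.45, the adjusted p of TP53I11 was 0.00567. Over the other alternatives that give a difference per gene it lay between 0.0574 and 0.555. The rank product is not given for the pathway genes.

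Genes with more than 1 probe on the same transcript gave a view of the arrays that does not depend on the comparison of the groups. In 7 genes (MDM2, MDM4, PPM1D, TP53INP1, AEN, RRM2B and DDB2) the outermost probes lay at least 500 bases apart. On EV 2 the 5′ probe was the lower in 6 of 7, each probe taken relative to its group mean, with a median of -0.54, and on HOTAIR 3 also in 6 of 7, with a median of -0.46. MDM2 was the exception on both. On EV 3 it was lower in 0 of 7, on HOTAIR 1 and HOTAIR 2 in 1 of 7 each, and on EV 1 and EV 4 in 3 of 7. Because values are relative to the group mean, low values on an array raise those of the others in its group. DDB2 had the widest shift on EV 2, with the 5′ probe at -0.90 relative to the 3′ probe, and was at -0.39 on HOTAIR 3, where PPM1D had the widest, -0.51. These are the 2 arrays on which CDKN1A and BCL2L1 were lowest in their groups, and the part of probe position in those values was not tested.

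**Figure D4:**
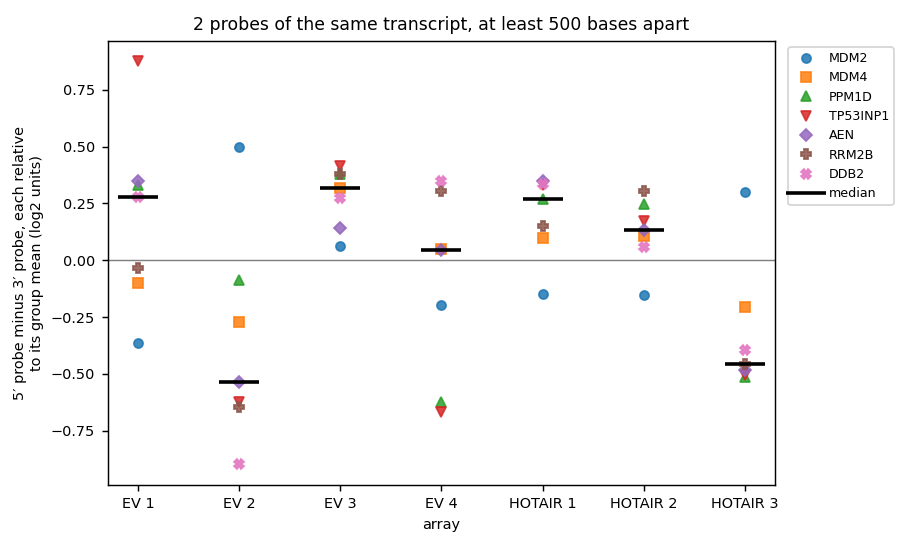
Deviation of the 5′ probe minus that of the 3′ probe from their group means (y axis, log2 units) on each array (x axis) for 7 genes with 2 probes at least 500 bases apart on the same transcript. Points are genes and black bars medians, which lie at -0.54 on EV 2 and -0.46 on HOTAIR 3 and above 0 on the other 5 arrays. Low values on an array raise those of the others in its group.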

How the data were processed

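RNA of ACHN-EV (n = 4) and ACHN-HOTAIR (n = 3) cells was read on 1-colour Agilent SurePrint G3 arrays, 1 sample per array, grouped by the sample labels. The authors deposited the processed intensity of every spot, background-subtracted and not scaled between arrays, from Feature Extraction 10.7.3.1 (named in the submitters' processing notes), and a table of the same intensities that differed from them by at most 0.498%. Probe coordinates are those of the array annotation (hg19). The 42 genes and the list of 66 further pathway genes were chosen with earlier results of these data known.

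Processed intensities were put on the log2 scale, and the 75th percentile of the 58717 non-control spots of an array was set to 0. Outlier spots (408 to 600 per array) were left out, and spots of a probe were averaged. A probe was well above background where at least 50% of its spots were, and a probe was tested if all arrays of EV, of HOTAIR or of both had it so (20419 probes, 16664 genes). No spot was saturated. The brightest tested probe represents a gene. HOTAIR was compared with EV by lmFit and eBayes of limma 3.58.1 in R 4.3.3, p-values being adjusted by Benjamini-Hochberg over all probes tested, and single genes by an exact permutation test of the difference of means, two-sided, over 35 label assignments. The comparison was tested on simulated data. The number of arrays limits the precision. Fold changes and counts are relative to each array's scale.

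Levels on every array are given for genes past the adjusted p, genes whose groups did not overlap, the 3 highest and 3 lowest differences, and CDKN1A, MDM2, GDF15, BAX, BCL2L1 and MCL1. From the pathway list they are given for genes whose groups did not overlap. Some items of the gene and marker lists are not reported here. Other genes and single probes named with values were picked with those values known. The comparison was repeated with scaling by the median or 75th percentile of detected probes, with quantile normalization, with normexp (offset 50), no filter or a stricter filter on dim probes, the deposited table, each array left out, EV 2 and HOTAIR 3 left out, the replicate number as a block, trend and robust moderation, array weights, the mean of a gene's probes, and the rank product (100 permutations, limit of 0.05 on false positives), which is the method the study names. Promoter sequences were taken from RefSeq (GRCh38.p14), matched by symbol.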

Additional observations from a re-analysis of the deposited data

Results flagged for a closer look

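In 2 cases an EV array lay farther from the others of its group than Dixon's 95% critical value for 4 samples allows. For FAS the gap of EV 2, the highest EV array, to the next was 0.853 of the range of the EV arrays. For BCL2L1 the gap of EV 2, the lowest EV array, was 0.909 of the range. Of the 17 genes examined, chance would give about 0.85 such cases if the genes were independent. EV 2 stood apart over the whole array, and some of the 17 were picked by their values on these arrays. The number therefore cannot say whether these 2 cases exceed chance.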

How the results depend on the processing

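No alternative called any of the 41 genes. Their lowest adjusted p lay between 0.0639, with array weights, and 1.00, without HOTAIR 1. The number of probes called over the whole array was less stable than this. It was 34 as reported, 12 with normexp, 14 with no filter on dim probes, 22 with the filter on all arrays, 20 with trend and robust moderation, 324 with array weights, 77 with the rank product, and between 9 and 30 with 1 array left out (9 without EV 1, 12 without EV 3, 11 without EV 4, 15 without HOTAIR 1, 13 without HOTAIR 2 and 21 without HOTAIR 3). With the replicate number as a block, a paired fit over the shared numbers, it was 0. No source used here says whether the numbers pair the samples. Deviations of same-numbered arrays had correlations of 0.386, -0.368 and -0.406. Deviations are taken from each group's own mean and depend on one another, so these correlations cannot decide it. The replicate block is given for completeness. The median difference of the 41 genes stayed below 0 throughout, at -0.062 with array weights and between -0.090 and -0.0056 with 1 array left out. Among the genes in the p53 target roles, the count below 0 was between 13 and 17 of 19 over the settings that give a difference per gene, which the rank product does not.

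Of the 41 genes 18 changed sign under at least 1 of the 19 settings that give a difference per gene, and 23 kept it. In the fit reported above, none of the 18 had a difference beyond 0.21 in either direction. Of the 17 genes whose values on every array are given with their fits, 3 changed sign. CDKN1A was at -0.016 with normexp, -0.0025 with quantile normalization and -0.16 with array weights, and ranged from -0.29 to 0.31 with 1 array left out. BCL2L1 was at 0.0052 with the 75th percentile of detected probes and 0.089 with the replicate block, and ranged from -0.32 to 0.21. MCL1 was at 0.0081 with the replicate block and ranged from -0.16 to 0.091. The cause was not tested. The other 14 of these kept their sign in every setting run for them. Over the settings that give a difference per gene, TP53I11 was the only 1 of the 17 whose side of the threshold changed, with array weights. With 4 and 3 arrays, the intervals of these 41 genes had half-widths from 0.24 to 0.88 on the log2 scale (95%, unadjusted), and the number of arrays limits this precision.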
